A study of Mus musculus with 77 samples.

Results

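Messenger RNA of 9 genes of the oxygen-sensing machinery was followed in the mouse retina during oxygen-induced retinopathy (OIR). These were the alpha subunits of the hypoxia-inducible factors (HIF) *Hif1a*, *Epas1* and *Hif3a*, their partner *Arnt*, the ubiquitin ligase subunit *Vhl*, the prolyl hydroxylases *Egln1*, *Egln2* and *Egln3*, and the asparaginyl hydroxylase *Hif1an*. The genes were chosen by name, and every probe whose transcript carried one of these symbols was kept, which gave 16 of the 55681 probes that are not controls and 9 of the 21154 genes with a symbol. Of the 9 genes, 4 had 1 probe, 3 had 2 probes and 2 had 3 probes. For each gene, the probe with the brightest retina signal is called its lead probe.

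A HIF is a pair of an alpha subunit and ARNT that binds DNA and switches on genes for glycolysis, vessel growth and survival. While oxygen is present, the prolyl hydroxylases (PHD enzymes) modify the alpha protein so that VHL marks it for destruction, and the enzyme encoded by *Hif1an* (factor inhibiting HIF) keeps the remaining alpha protein from binding its coactivators. In the OIR model, high oxygen stops the growth of retinal vessels, and the return to room air leaves the poorly supplied retina short of oxygen. Oxygen acts mainly on the alpha proteins, whereas the arrays measured only mRNA.

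All mice were C57BL/6 without a transgene named in the labels. On P7 whole litters were allotted by chance to hyperoxia with 75% oxygen (OIR) or to normoxia with 21% oxygen (control). Per the study's methods, the exposure ended on P12, after which both groups were in room air. Retinas were taken on P12, P17 or P28 from 13, 13 and 13 OIR mice and from 12, 12 and 14 control mice. Each of the 77 arrays held the pooled retinas of 1 mouse against universal mouse reference RNA, so the replicates of a group were different mice. The labels do not name the litters, so mice of a group may be littermates, and in whole retina fewer cells of a type and less RNA per cell cannot be told apart.

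The oxygen-responsive core sequences that HIFs bind, ACGTG and GCGTG, were searched on both strands in the 250 bases before the RefSeq gene start (GRCm38.p6). A promoter was found for 8 of the 9 genes, with 9 windows in all, since *Egln2* has 2 starts and the table used here holds none for *Epas1*. At least 1 core was present in 7 of the 9 windows, against 38.6% of all 32851 promoters in windows of the same length (16.6% with ACGTG, 28.2% with GCGTG). The windows of *Vhl* on chromosome 6 and of *Hif1an* on chromosome 19 held neither. Those of *Hif3a*, *Arnt* and *Egln2* held cores and are not printed. The windows of *Hif1a*, *Egln1* and *Egln3* are shown as examples with cores. They are written 5' to 3' on the strand of the gene with the cores or their reverse complements in capitals.
Hif1a (chr12:73907617-73907866, plus strand): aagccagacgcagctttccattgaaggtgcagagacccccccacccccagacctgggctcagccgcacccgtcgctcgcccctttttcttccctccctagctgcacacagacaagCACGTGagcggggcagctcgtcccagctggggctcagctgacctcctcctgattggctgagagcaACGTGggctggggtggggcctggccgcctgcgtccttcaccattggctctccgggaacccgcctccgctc
Egln1 (chr8:124949255-124949504, minus strand): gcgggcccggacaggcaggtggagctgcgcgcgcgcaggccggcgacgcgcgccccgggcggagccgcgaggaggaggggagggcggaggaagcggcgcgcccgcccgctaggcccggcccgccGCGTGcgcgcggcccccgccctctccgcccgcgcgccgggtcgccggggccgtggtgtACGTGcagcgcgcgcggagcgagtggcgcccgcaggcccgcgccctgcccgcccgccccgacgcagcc
Egln3 (chr12:54203875-54204124, minus strand): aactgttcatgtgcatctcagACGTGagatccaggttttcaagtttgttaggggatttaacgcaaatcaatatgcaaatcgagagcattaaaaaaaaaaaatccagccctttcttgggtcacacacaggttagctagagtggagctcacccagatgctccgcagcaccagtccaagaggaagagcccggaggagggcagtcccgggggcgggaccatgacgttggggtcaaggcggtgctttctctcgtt
In *Hif1a* the first capital stretch reads as ACGTG on both strands, 134 and 135 bases before the start, and a further ACGTG lies 70 bases before it. *Egln1* held a GCGTG 126 bases and an ACGTG 68 bases before its start, and *Egln3* a single ACGTG 229 bases before it. These matches describe letters only, and no binding was measured.

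Levels are given as the offset ratio, the log2 ratio of retina to reference after background correction with an added signal of 50, so that 0 means equal signals and dim probes are drawn toward 0. The labels name Cy5 as the dye of the retina, but rod genes were brighter in Cy3 on all 77 arrays, with *Sag*, the rod arrestin, at least 4.18 higher on the log2 scale. Cy3 was therefore read as the retina, and every sign below is opposite to that of the labels. In the retina channel, an array had from 13801 to 34328 probes well above background. The arrays fell into a larger set of 49 and a smaller set of 28, divided by the widest gap on the first principal component, which held 58.2% of the variance. The smaller set came from 1 of 4 scan days and held 11 of 13 OIR and 9 of 14 control mice of P28, but only 1 of 13, 2 of 12, 2 of 13 and 3 of 12 mice of OIR P12, control P12, OIR P17 and control P17. The 4 slides with arrays of the smaller set held only 4 arrays of the larger set, so set, slides and scan day nearly coincided. No label explains this division, so age and set could be separated only in part, and values are given with and without it where they differ.

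In the offset ratio, with all arrays and no covariate, no probe of the 9 genes passed the test between OIR and control mice on any day. Other fits called *Hif1a*, *Epas1* or *Egln3*, as given with each gene and in the counts by fit further below. On P12, 0 of the 16 probes passed an adjusted p of 0.05 (limma with Benjamini-Hochberg adjustment over all probes), against 0.0216% of all probes tested, and 2 had an unadjusted p under 0.05. On P17 the count was again 0 of 16, against 1.14% of all probes, with 3 at an unadjusted p under 0.05. On P28 it was 0 of 16, against 0.0611% of all probes, with 2 at an unadjusted p under 0.05. Of all 55681 probes, 1741, 5769 and 4145 had an unadjusted p under 0.05 (limma) on P12, P17 and P28. The median log2 fold change of the 16 probes was 0.016, 0.0087 and 0.034 on P12, P17 and P28, beside -0.00065, 0.0010 and 0.00024 for all probes. The change of the OIR effect from P12 to P17, from P17 to P28 and from P12 to P28 was likewise called for 0 of 16 probes, against 0.487%, 0.278% and 0.0395% of all probes, with 1, 3 and 2 at an unadjusted p under 0.05. For these changes, 2712, 7796 and 3442 of all 55681 probes had an unadjusted p under 0.05 (limma).

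**Figure D1:**
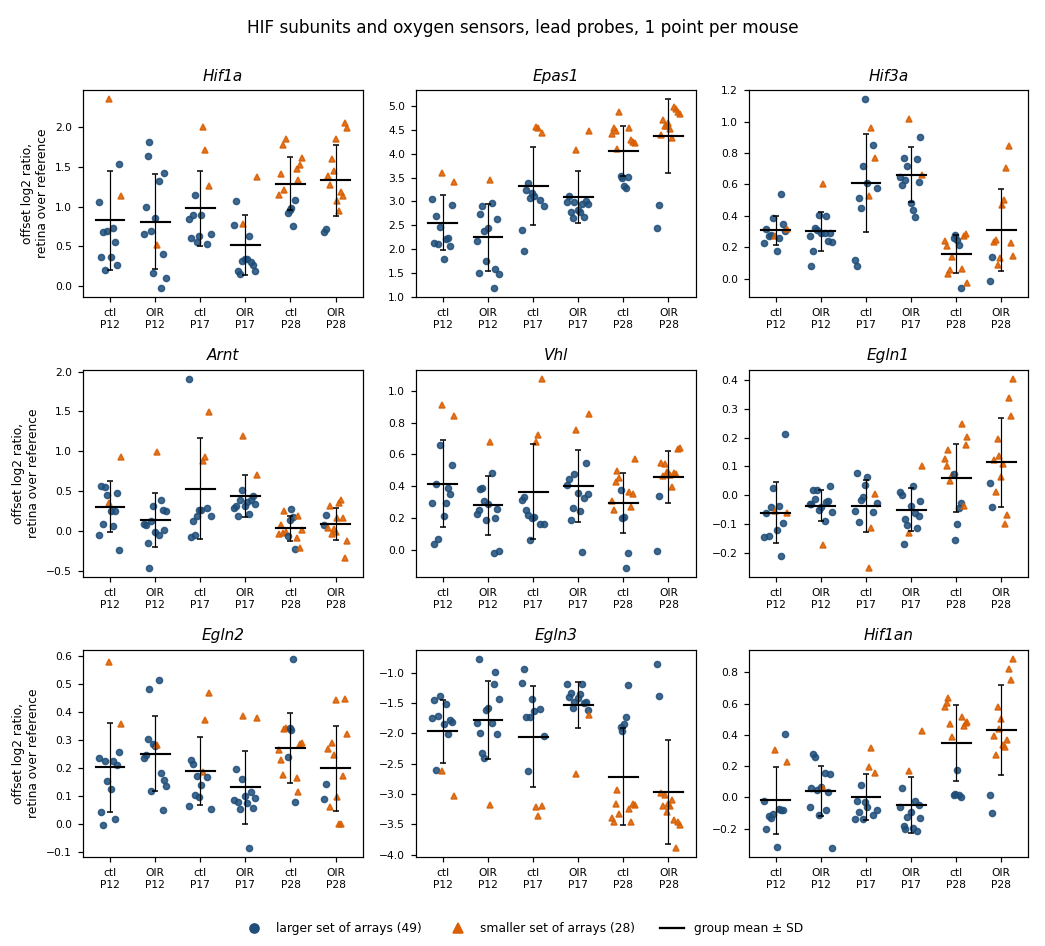
Offset log2 ratio of retina to reference for the lead probe of each of the 9 genes, 1 point per mouse, by group (ctl, control) with the group mean and SD. Orange triangles mark the smaller set of 28 arrays and blue circles the larger set of 49. In Epas1 and Hif1an the orange points lie mostly above the blue ones and in Egln3 below, whereas the OIR and control groups of a day overlap for every gene.

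**Figure D2:**
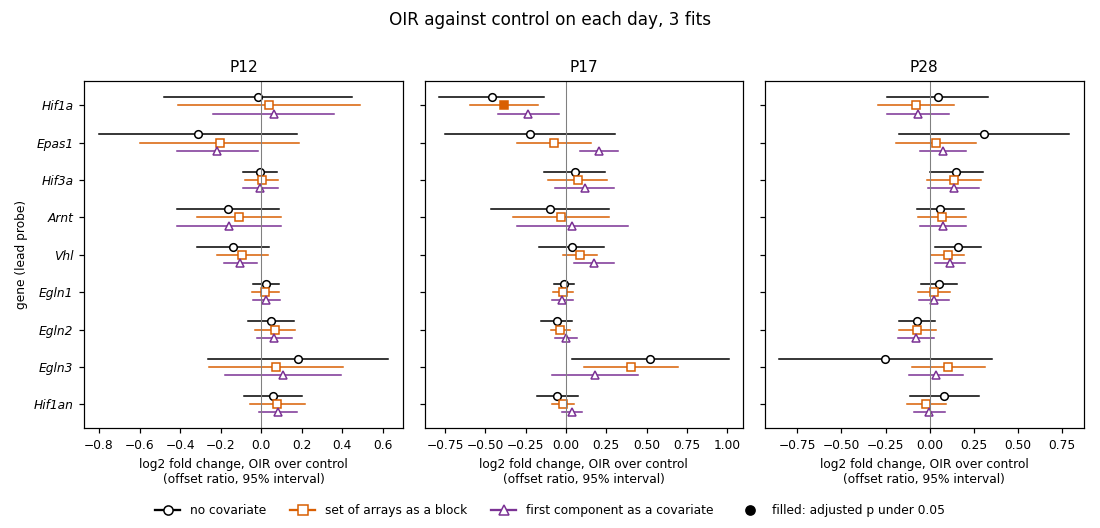
Log2 fold change of OIR over control mice in the offset ratio for the lead probe of each gene on P12, P17 and P28, with the interval of 95% confidence, from fits with no covariate (circles), with the set of arrays as a block (squares) and with the first principal component as a covariate (triangles). Hif1a on P17 is the filled symbol, at -0.38 with the set of arrays as a block, and no other symbol is filled, which marks an adjusted p under 0.05.

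*Hif1a* encodes HIF-1alpha, the alpha subunit found in nearly all cells. All arrays had its probe (A_51_P387608) well above background. On P17 the 12 control mice ranged from 0.53 to 2.005 with a median of 0.86, and the 13 OIR mice from 0.14 to 1.37 with a median of 0.34. The groups overlapped, but the control median exceeded the value of 11 of 13 OIR mice. The OIR mean was 0.52 ± 0.38 (SD, n = 13) and the control mean 0.98 ± 0.47 (SD, n = 12), a difference of -0.46 (SE 0.167; limma, unadjusted p = 0.0106, adjusted p = 0.265). With the set of arrays as a block the difference was -0.38 (SE 0.107, limma adjusted p = 0.0412), which passed the threshold in a fit that called 3.9% of all probes. Within the larger set it was -0.34 (adjusted p = 0.158, 11 OIR and 9 control mice, limma), and with the first principal component as a covariate -0.23 (limma adjusted p = 0.285). That fit called 2.28% of all probes on P17. The mean component score was 0.077 in OIR and 0.020 in control mice of P17, and its part in the *Hif1a* difference was not tested further. In the deposited ratio, which the authors computed without an added signal, the difference was -0.56 (limma adjusted p = 0.052). The nearly identical log ratio of the scanner software also gave -0.56 and passed (limma adjusted p = 0.0483, where 2.93% of all probes were called), as did the deposited ratio with the set of arrays as a block, at -0.51 (limma adjusted p = 0.0271).

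On the other days the means were closer. On P12 *Hif1a* ranged from 0.20 to 2.35 with a median of 0.68 in control mice and from -0.027 to 1.81 with a median of 0.69 in OIR mice, and the means differed by -0.016 (95% interval -0.48 to 0.45). On P28 the control mice ranged from 0.76 to 1.85 with a median of 1.27 and the OIR mice from 0.68 to 2.05 with a median of 1.28, a difference of 0.047 (95% interval -0.24 to 0.33). In order of their means, the groups ran from OIR P17 through OIR P12, control P12, control P17 and control P28 to OIR P28, and each neighbouring pair differed by less than the SD within the groups.

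*Epas1* encodes HIF-2alpha, the alpha subunit best known from endothelial cells and some glia. All arrays had its lead probe (A_51_P250058) well above background. Control mice ranged from 1.80 to 3.61 with a median of 2.35 on P12, from 1.96 to 4.56 with a median of 3.15 on P17, and from 3.28 to 4.87 with a median of 4.24 on P28. OIR mice ranged from 1.18 to 3.44 with a median of 2.39 on P12, from 2.65 to 4.48 with a median of 2.96 on P17, and from 2.43 to 4.98 with a median of 4.59 on P28. Both groups thus stood lowest on P12 and highest on P28. OIR mice differed from control mice by -0.31 on P12 (95% interval -0.80 to 0.18), by -0.22 on P17 (-0.75 to 0.30) and by 0.31 on P28 (-0.18 to 0.79), each with a limma adjusted p of at least 0.723. On P28 the sign depended on the arrays. Among the 2 OIR and 5 control mice of the larger set the difference was -0.75 (limma adjusted p = 0.0187, where 8.18% of all probes were called), with both OIR mice, at 2.43 and 2.93, below the lowest control mouse at 3.28, whereas within the smaller set it was 0.26 (limma adjusted p = 0.428). In the same fit of the larger set the second probe of the gene (A_55_P2077448) was called in the opposite direction, at 0.51 (limma adjusted p = 0.0448). The 2 OIR mice of that set were on slides 10 and 11 of scan days 1 and 2 and the 5 control mice on slides 1 to 3 of scan day 3, so OIR, slide and scan day cannot be told apart there.

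Of the 3 probes of *Epas1*, the second ran against the others between the sets of arrays. The second probe (A_55_P2077448), well above background on all arrays, lay between -2.04 and -1.38 on the 28 arrays of the smaller set and between 0.055 and 2.19 on the 49 arrays of the larger set, with no overlap. The lead probe went the other way, from 3.40 to 4.98 with a median of 4.51 in the smaller set and from 1.18 to 3.54 with a median of 2.79 in the larger set. A value of this gene therefore rested on which probe and which arrays were taken. The third probe (A_55_P2053988) stood on the side of the lead probe, with a median of 0.39 in the smaller and 0.11 in the larger set. It was dim, well above background in the retina on 50 of 77 arrays and in the reference on 1.

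That dim probe gave the lowest unadjusted p of the group on P12. Control mice ranged from 0.00030 to 0.44 with a median of 0.12, and OIR mice from -0.093 to 0.12 with a median of 0.021. Each of the 13 OIR mice was under the median of the control mice, although the ranges overlapped, and the difference was -0.12 (SE 0.0366; limma, unadjusted p = 0.00363, adjusted p = 1). On P17 the difference was 0.063 (limma adjusted p = 0.761), and with the first principal component as a covariate it was 0.16 (limma adjusted p = 0.00978). The change of the OIR effect from P12 to P17 was 0.18 (limma adjusted p = 0.958), 0.24 with the component as a covariate (limma adjusted p = 0.00342) and 2.02 in the deposited ratio (limma adjusted p = 0.0158). Those fits called 0.821% and 1.39% of all probes. The retina channel alone also called *Epas1* upward on P17 and for the change from P12 to P17, where 3.04% and 1.75% of all probes were called. Over the 11 endothelial marker genes the mean offset ratio ranged from 0.086 to 0.38 in OIR and from 0.31 to 0.68 in control mice of P12, where 1 of 11 fell, and from 0.53 to 1.07 in OIR and from 0.24 to 0.74 in control mice of P17, where 2 of 11 rose. The part of these cells in the *Epas1* values was not tested.

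**Figure D3:**
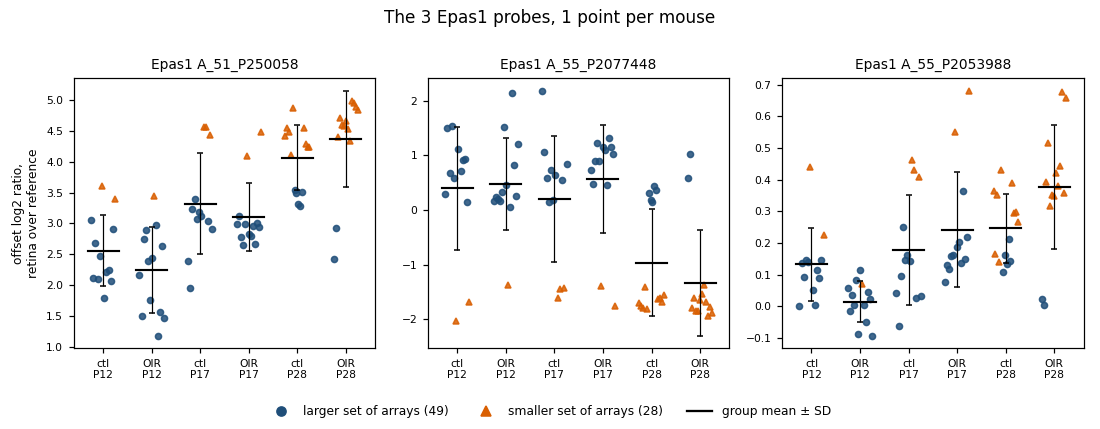
Offset log2 ratio of retina to reference for the 3 Epas1 probes, 1 point per mouse, by group with the mean and SD. Orange triangles are the smaller set of arrays and blue circles the larger set. In the second probe the 2 sets do not overlap, and they stand in the opposite order to the lead probe.

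*Hif3a* encodes an alpha subunit whose short forms restrain the others. Its lead probe (A_55_P2015541) ranged from 0.18 to 0.54 with a median of 0.29 in control mice of P12, from 0.085 to 1.14 with a median of 0.59 on P17 and from -0.057 to 0.28 with a median of 0.21 on P28. In OIR mice it ranged from 0.080 to 0.60 with a median of 0.29 on P12, from 0.39 to 1.01 with a median of 0.65 on P17 and from -0.015 to 0.84 with a median of 0.23 on P28, where 1 of 13 arrays had no value. Both groups were highest on P17. The OIR differences were -0.0073, 0.054 and 0.15 on P12, P17 and P28 (limma adjusted p = 1, 0.86 and 0.678). The other 2 *Hif3a* probes were well above background on 2 and 1 of the 77 arrays, so their values describe background.

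*Arnt* encodes the shared beta subunit. Its lead probe (A_55_P2100895) ranged from -0.24 to 0.93 in control and from -0.47 to 0.99 in OIR mice of P12, with medians of 0.30 and 0.085. On P17 the ranges were -0.084 to 1.91 in control and 0.18 to 1.19 in OIR mice, with medians of 0.26 and 0.37. The OIR difference on P17 was -0.098 in the means (limma adjusted p = 0.866), although 11 of 13 OIR mice lay above the control median, since 1 control mouse stood at 1.91. On P28 the medians were -0.0056 and 0.069, with a difference in means of 0.061 (limma adjusted p = 0.785). The second probe of *Arnt* differed by 0.15 on P17 (limma, unadjusted p = 0.0406, adjusted p = 0.449).

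*Vhl* encodes the part of the ubiquitin ligase that recognizes hydroxylated HIF alpha. In its probe (A_66_P106593) control mice ranged from 0.032 to 0.91 with a median of 0.37 on P12, from 0.063 to 1.07 with a median of 0.23 on P17 and from -0.12 to 0.57 with a median of 0.33 on P28. OIR mice ranged from -0.022 to 0.68 with a median of 0.26 on P12, from -0.014 to 0.85 with a median of 0.35 on P17 and from -0.012 to 0.64 with a median of 0.48 on P28. The OIR median stood below that of control mice on P12 and above it on P17 and P28, with overlapping ranges on each day. On P12 the highest control values, 0.91 and 0.84, were those of the 2 mice of the smaller set. The highest OIR value, 0.68, was that of the 1 OIR mouse of that set. On P28, 12 of 13 OIR mice lay above the control median and the means differed by 0.16 (SE 0.0663; limma, unadjusted p = 0.021, adjusted p = 0.641). The change of the OIR effect from P12 to P28 was 0.30 (SE 0.125; limma, unadjusted p = 0.0185, adjusted p = 0.743), so neither held over all probes.

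*Egln1* encodes PHD2, the main prolyl hydroxylase in most tissues, and is itself a known HIF target. Its probe (A_51_P186899) was dim, well above background on 27 of 77 arrays, and stayed near 0 in every group. On P17 control mice ranged from -0.25 to 0.079 with a median of -0.021 and OIR mice from -0.17 to 0.10 with a median of -0.062. The difference was -0.013 (95% interval -0.076 to 0.051), and on P12 and P28 it was 0.025 and 0.055 (limma adjusted p = 1 and 0.754). An offset ratio understates changes of so dim a probe. In the deposited ratio its P17 difference was not called either.

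*Egln2* encodes PHD1. Its lead probe (A_55_P1960924) had medians of 0.22, 0.17 and 0.27 in control and of 0.25, 0.092 and 0.17 in OIR mice of P12, P17 and P28, and the lowest and highest mouse of all groups were at -0.085 and 0.59. The OIR differences were 0.049, -0.058 and -0.072, the last 2 with 95% intervals of -0.15 to 0.039 and -0.17 to 0.030. On the second probe the differences were 0.10, -0.016 and -0.054. None passed the threshold (limma adjusted p of at least 0.696 for both probes).

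*Egln3* encodes PHD3, a prolyl hydroxylase whose gene is a known HIF target. Its P17 call turned on the ratio used. In the offset ratio its lead probe (A_52_P387009) ranged from -3.36 to -0.94 with a median of -1.73 in control mice and from -2.67 to -1.18 with a median of -1.48 in OIR mice of P17. Although the ranges overlapped, 12 of 13 OIR mice lay above the control median, and the means differed by 0.52 (SE 0.247; limma, unadjusted p = 0.0446, adjusted p = 0.464). The second probe (A_55_P1960916) differed by 0.30 (limma adjusted p = 0.549).

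In the deposited ratio, which has no added signal, the lead probe ranged from -7.49 to -4.90 with a median of -6.31 in control and from -5.99 to -2.35 with a median of -4.38 in OIR mice of P17. The 13 OIR mice all exceeded the control median. The OIR mean was -4.36 ± 0.93 (SD, n = 13) and the control mean -6.33 ± 0.76 (SD, n = 12). The difference was 1.97 (SE 0.33, limma adjusted p = 0.000466). The second probe ranged from -6.75 to -3.35 in control and from -4.93 to -2.14 in OIR mice, again with every OIR mouse higher than the median control mouse and a difference of 1.86 (SE 0.35, limma adjusted p = 0.0019). In this ratio 2 of 16 member probes were called on P17, both of *Egln3*, against 2.64% of all probes. The change of its OIR effect from P12 to P17 was 1.95 for the lead probe (limma adjusted p = 0.00611) and 1.61 for the second (limma adjusted p = 0.072). An offset of 0 and the retina channel alone also called a rise of *Egln3* on P17, where they called 1.64% and 3.04% of all probes. Both also called the change of its effect from P12 to P17 upward and from P17 to P28 downward.

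These *Egln3* values came from dim spots. The lead probe was well above background in the retina on 4 of 13 OIR and 1 of 12 control mice of P17, and the second probe on 3 of 13 and 0 of 12. For the second probe, the mean log2 retina signal was 6.25 in OIR and 5.93 in control mice of P17, a 1.25-fold difference. Since only 3 of 13 OIR mice were well above background there, this value is not a lower bound. With the set of arrays as a block the deposited difference of the lead probe was 1.96 (limma adjusted p = 0.00054, in a fit that called 4.59% of all probes), while in the offset ratio it was 0.40 with this block (limma adjusted p = 0.146), 0.24 within the larger set (limma adjusted p = 0.574) and 0.18 with the first principal component as a covariate (limma adjusted p = 0.70). The same probe in the reference channel differed by 0.011 between the groups (SE 0.0574, limma adjusted p = 1). On P12 both groups had a deposited median near -6, at -6.14 in control and -5.98 in OIR mice, and on P28 the medians were -6.17 and -5.40.

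**Figure D4:**
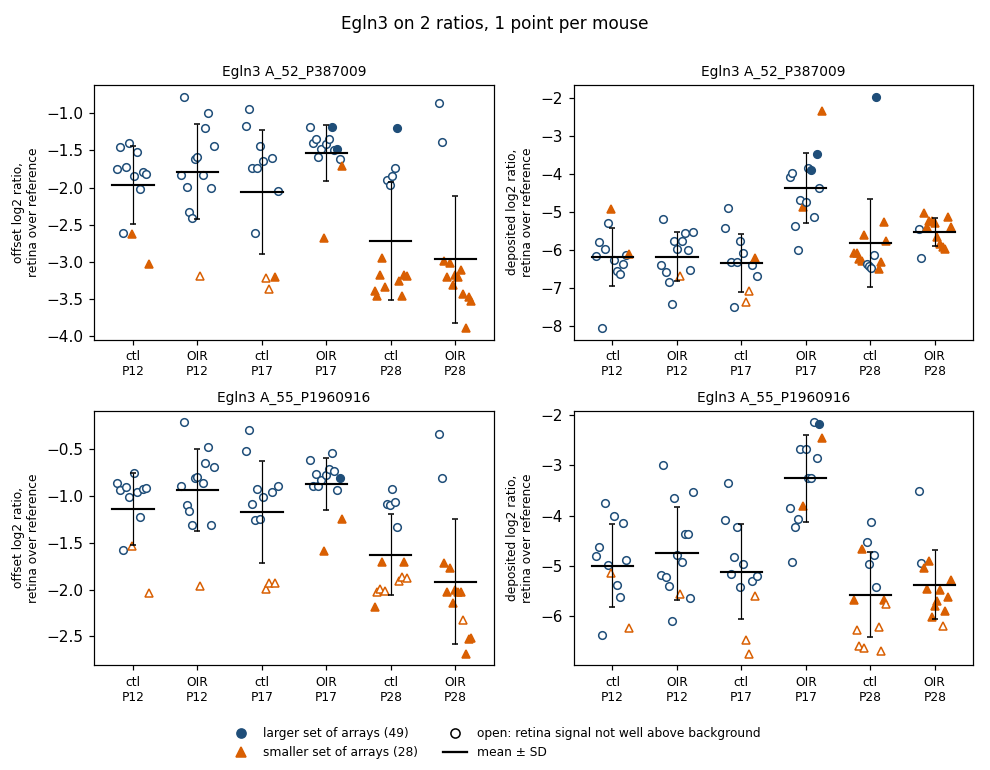
Both Egln3 probes, 1 point per mouse, in the offset log2 ratio (left) and in the deposited log2 ratio (right), by group with the mean and SD. Open symbols are mice whose retina signal was not well above background, orange the smaller and blue the larger set of arrays. In the deposited ratio the OIR mice of P17 stand above the other groups, at a mean of -4.36 against -6.33 in control mice for the lead probe, and most of their symbols are open.

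*Hif1an* encodes factor inhibiting HIF. Its probe (A_51_P521171), well above background on 56 of 77 arrays, ranged from -0.32 to 0.40 in control and from -0.32 to 0.28 in OIR mice of P12, and from -0.14 to 0.31 in control and from -0.22 to 0.42 in OIR mice of P17. On P28 the ranges were 0.0052 to 0.64 and -0.10 to 0.89, with medians of 0.46 and 0.40. The OIR differences were 0.058, -0.053 and 0.083 on P12, P17 and P28, with 95% intervals of -0.086 to 0.20, -0.18 to 0.073 and -0.11 to 0.28.

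In the offset ratio with no covariate, the members gave no call on P17, while other genes of the pathway differed. Some other fits did call members, as given above. Of 48 HIF target genes, 16 rose and 0 fell on P17, against 0 and 0 on P12 and 1 and 0 on P28. Of all probes, 1.14% were called on P17, 0.0216% on P12 and 0.0611% on P28. In a fit of only the probes well above background on at least 0.5 of the P17 arrays, 4.4% were called. The target list was chosen with earlier results of these data known, so its count is not an independent test. Without *Egln1*, *Egln3* and *Hif3a*, which are also targets, 16 of 45 rose and their median log2 fold change was 0.29, beside 0.0010 for all probes. *Ndufa4l2*, a subunit-like protein that lowers mitochondrial respiration, ranged from 0.092 to 0.75 with a median of 0.55 in control and from 2.09 to 3.05 with a median of 2.55 in OIR mice of P17, so the groups did not overlap. It rose by 2.03 (SE 0.0965, limma adjusted p = 1.85e-12), and was still higher by 0.79 on P28 (SE 0.0658, limma adjusted p = 8.29e-08). *Hmox1*, which breaks down heme, rose by 1.69 (SE 0.276, adjusted p = 0.000761), the angiogenic peptide gene *Apln* by 1.42 (SE 0.161, adjusted p = 4.59e-06) and the vasodilator peptide gene *Adm* by 1.31 (SE 0.228, adjusted p = 0.00155), all in the offset ratio on P17 by limma.

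Without a covariate, few of the genes around the oxygen sensors were called on P17, where 1.14% of all probes were called. Of 10 relatives of ARNT and the alpha subunits (the bHLH-PAS family) and of 10 partners of VHL in its ligase, 0 rose and 0 fell on each of the 3 days, with 1 and 3 at an unadjusted p under 0.05 on P17 (limma). Among all 55681 probes, 5769 had such a p on P17. Of 25 HIF cofactors and regulators, 1 rose and 0 fell on P17, *Os9*, which encodes an endoplasmic reticulum lectin, by 0.17 (SE 0.0381, limma adjusted p = 0.0162). Of 26 other 2-oxoglutarate oxygenases, the enzyme family of the PHD proteins, 2 rose and 0 fell, the collagen prolyl hydroxylase *P4ha2* by 0.54 (SE 0.129, limma adjusted p = 0.0308) and the histone demethylase *Kdm4b* by 0.26 (SE 0.0637, limma adjusted p = 0.0369). Both are also in the list of HIF targets. With the set of arrays as a block these lists held further calls on P17. The neuronal activity factor *Npas4* rose by 0.35 (limma adjusted p = 0.00857), the only one called of the relatives, while the partners *Ube2d2a* and *Usp20* fell by 0.18 and 0.15 (limma adjusted p = 0.0364 and 0.0379). Of the cofactors, 1 rose and 1 fell, the coactivator *Ncoa2* at -0.44 (limma adjusted p = 0.022). Of the oxygenases, 3 rose and 1 fell, with the collagen lysyl hydroxylase *Plod2* at 0.43 (limma adjusted p = 0.00129) and *Riox2* at -0.079 (limma adjusted p = 0.0253). In that fit 22 of 48 HIF targets rose and 0 fell, where 3.9% of all probes were called.

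**Figure D5:**
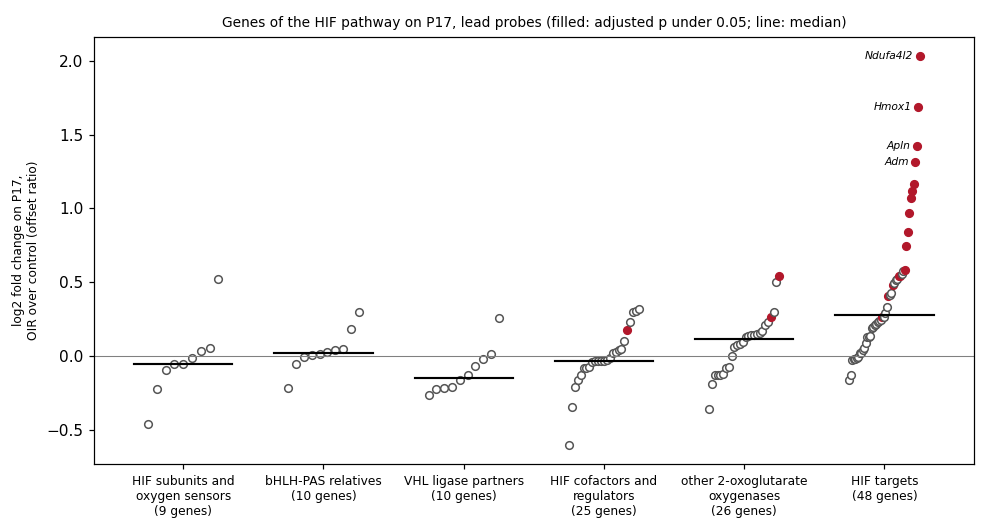
Log2 fold change of OIR over control mice on P17 (offset ratio, lead probes) for the 9 members and 5 lists of related genes, 1 point per gene, sorted within a list, with the median as a line and filled points for an adjusted p under 0.05. None of the 9 members is filled, with values from -0.46 to 0.52, whereas 16 of 48 HIF targets are, up to 2.03 for Ndufa4l2. In this comparison 1.14% of all probes were called, and the lists were chosen with earlier results of these data known.

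A few cell type markers were called between OIR and control mice on P17, where 1.14% of all probes were called. Of the markers, 2 of 11 endothelial, 2 of 8 mural, 2 of 6 astrocyte, 2 of 9 microglia and 1 of 4 red blood cell genes rose, while 1 of 8 amacrine, 1 of 9 ganglion cell, 1 of 8 pigment epithelium and 1 of 9 lens genes fell. None of the 8 rod, 7 cone, 7 bipolar and 4 horizontal cell genes was called. Of 8 Mueller glia markers 0 were called on P17, with a median log2 fold change of -0.35, and their mean offset ratio ranged from 2.14 to 2.98 in OIR and from 1.64 to 3.33 in control mice. Their part in the member values was not tested.

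With age, control mice differed in several members. From P12 to P17, 1 of 16 probes rose and 0 fell, against 1.28% of all probes called. From P17 to P28, 3 rose and 3 fell, against 13.4%, and from P12 to P28, 4 rose and 3 fell, against 23%. In a fit of only the probes well above background on at least 0.5 of the arrays, 11 member probes were tested. Of these, 1 was called from P12 to P17, against 4.35% of the probes kept. From P17 to P28 it was 6, against 35%, and from P12 to P28 it was 5, against 52.3%. Since 9 of 14 control mice of P28 but 2 of 12 of P12 and 3 of 12 of P17 were in the smaller set, age values are given beside ones that take the set or the component into account. The fits with the set as a block, within the larger set and with the component called 16.9%, 9.29% and 16.4% of all probes from P12 to P28, and 13.3%, 1.29% and 13.1% from P17 to P28.

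The lead probe of *Epas1* rose from P12 to P28 by 1.51 (SE 0.259, limma adjusted p = 5.64e-06). It rose by 0.86 with the set of arrays as a block (adjusted p = 1.7e-05), by 1.06 within the larger set (adjusted p = 0.00119) and by 0.53 with the component as a covariate (adjusted p = 1.02e-06), all by limma. The size thus varied by over 1.5 times, while the direction held. Its second probe fell by 1.36 over the same days (SE 0.394, limma adjusted p = 0.00735). It differed by -0.26 with the block (limma adjusted p = 0.368) and by 0.15 with the component (limma adjusted p = 0.378), so its fall was not called there. *Hif3a* rose by 0.30 from P12 to P17 (SE 0.0787, limma adjusted p = 0.0281). This rise was 0.29 with the block (limma adjusted p = 0.0155) and 0.28 with the component (limma adjusted p = 0.019), and the difference was 0.25 within the larger set, where it did not pass (limma adjusted p = 0.106). The gene fell by 0.45 from P17 to P28 (SE 0.0758, limma adjusted p = 1.53e-05). That fall was 0.50 with the block, 0.37 within the larger set and 0.51 with the component in size, with a limma adjusted p of at most 0.0393. The lead probe of *Arnt* fell by 0.50 from P17 to P28 (SE 0.135, limma adjusted p = 0.00708), by 0.64 with the block (limma adjusted p = 0.000211) and by 0.58 with the component (limma adjusted p = 0.00238). Within the larger set the difference was -0.28, which did not pass (limma adjusted p = 0.489).

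*Vhl* differed by -0.12 from P12 to P28 without a covariate, which did not pass, but fell by 0.33 with the set of arrays as a block (limma adjusted p = 2.67e-05) and by 0.41 with the component as a covariate (limma adjusted p = 3.55e-08). *Hif1an* rose by 0.36 (SE 0.0828, limma adjusted p = 0.000579), by 0.18 with the block (limma adjusted p = 0.029), and was higher by 0.087 with the component (limma adjusted p = 0.266). *Egln1* rose by 0.12 (SE 0.0411, limma adjusted p = 0.0243), and was higher by 0.10 with the block (limma adjusted p = 0.105). The second probe of *Egln2* rose by 0.31 (SE 0.0817, limma adjusted p = 0.00283) and by 0.25 with the block (limma adjusted p = 0.0261). The lead probe of *Egln3* fell by 0.75 (SE 0.27, limma adjusted p = 0.0342), differed by -0.057 with the block (limma adjusted p = 0.889), and was higher by 0.37 in the deposited ratio (limma adjusted p = 0.412). The rise of the lead probe of *Epas1* from P12 to P28, which its second probe did not share, was called in each of these fits. So was the fall of the lead probe of *Hif3a* from P17 to P28. In contrast, *Arnt*, *Vhl*, *Hif1an*, *Egln1*, *Egln2* and *Egln3* missed the threshold in at least 1 of them.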

How the data were processed

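The 77 retina arrays were 2-colour Agilent arrays with 62976 spots each, 1 per mouse, on 11 slides and 4 scan days. Per the file headers, the authors extracted them with Feature Extraction 10.7.3.1, and the scanner files hold the median signal and local background of a spot as intensity values, processed intensity values that the software had background-subtracted and dye-normalized, and a log10 ratio of the processed Cy5 to Cy3 signal. In the authors' deposited table the values are log2 ratios, equal to Cy3 over Cy5 of the processed signals within 0.001 for 100% of the probes, with column medians from -0.13 to 0.0092; the GeneSpring GX settings are not given in the sources used here.

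For the offset ratio, median signals underwent normexp correction (offset 50) and loess normalization array by array in limma 3.58.1 (R 4.3.3, data.table version 1.17.8), with control spots at weight 0. Outlier spots (0.592 to 0.951% of an array) were left out, spots of a probe were averaged, and the ratio was turned to retina over reference. Transcripts were matched to RefSeq symbols, which 28026 of 55681 probes received. On each day OIR was compared with control by limma's moderated statistic, and ages and changes between days as contrasts in 1 model over the 6 groups, with Benjamini-Hochberg adjustment over all probes and no filter. The number of arrays and the brightness of a probe limit the precision. Only the P17 comparison without a covariate was tested on simulated data, which had independent noise and no sets of arrays. The block, covariate, age and change fits were not simulated. The alternatives were an offset of 0, no background subtraction, the deposited ratio, the scanner log ratio, the retina channel alone, slides as a block, a filter on dim probes, other variance models, array weights, Bonferroni adjustment and pooled models. The set of arrays, as a block or left out, and the first principal component as a covariate were added after the data were seen. The set was cut at the widest gap of the component. Intervals of 95% are normal intervals.

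The 9 genes and all lists of pathway genes and cell markers were chosen with earlier results of these data known. The text names every member, all its probes, and, between OIR and control mice and for age from P12 to P28, up to 4 called genes of each pathway list with the largest change. Calls that appeared only with the set as a block were named after their values were seen, and pathway genes of the other age comparisons are not reported here. Genes of like pattern were to be named for members called between OIR and control mice, of which there were none in the offset ratio with no covariate.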

Additional observations from a re-analysis of the deposited data

Results flagged for a closer look

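Whether the OIR effect changed with the day was tested in 1 limma model over the 6 groups, with Benjamini-Hochberg adjustment over all probes. In the offset ratio with no covariate, none of the 9 subunit and sensor genes passed. The genes below came from the lists of HIF targets, cofactors and oxygenases, which were chosen with earlier results of these data known. They are not all that were called. Of 45 HIF targets outside the 9 genes, the effect rose for 12 from P12 to P17, fell for 10 from P17 to P28 and rose for 1 from P12 to P28. Of all probes, 0.487%, 0.278% and 0.0395% were called. From P12 to P17 the OIR effect rose for *Ndufa4l2* by 2.51 on the log2 scale (adjusted p = 1.23e-26), for *Apln* by 1.53 (adjusted p = 1.26e-09), for the lactate exporter *Slc16a3* by 1.49 (adjusted p = 2.67e-10), for the vessel growth factor *Vegfa* by 1.18 (adjusted p = 2.49e-13), for the matrix enzyme *Loxl2* by 1.04 (adjusted p = 0.0122) and for *Os9* by 0.20 (adjusted p = 0.0365). From P17 to P28 its change was -1.88 for *Hmox1* (adjusted p = 0.0325), -1.25 for *Ndufa4l2* (adjusted p = 7e-11), -1.12 for *Slc16a3* (adjusted p = 4.19e-06), -1.04 for *Loxl2* (adjusted p = 0.0171), -0.99 for *Apln* (adjusted p = 0.000201), -0.80 for *Vegfa* (adjusted p = 6.47e-07) and -0.37 for *Kdm4b* (adjusted p = 0.0387). From P12 to P28 the effect on *Ndufa4l2* was higher by 1.26 (adjusted p = 4.15e-11).

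In group values, *Vegfa* ranged from -1.06 to -0.19 in OIR and from -0.99 to -0.089 in control mice of P12, but from 0.25 to 0.82 in OIR and from -0.73 to -0.19 in control mice of P17, where the groups did not overlap. *Slc16a3* stood at a mean of -0.89 in OIR and -0.57 in control mice of P12, and at 1.501 and 0.33 on P17. On P28 its means were 0.26 in OIR and 0.21 in control mice.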

How the results depend on the processing

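Counts of called member probes, 0 of 16 in the 6 OIR comparisons, moved with the ratio and the arrays. The share of all probes called in the same fit moved too and is given in brackets. On P17 the counts were 1 with an offset of 0 (1.64%), with the set of arrays as a block (3.9%) and with the component as a covariate (2.28%). They were 2 in the deposited ratio (2.64%) and in the retina channel alone (3.04%), and 3 in the scanner log ratio (2.93%) and in the deposited ratio with the block (4.59%). On P28 the count was 2 without the smaller set (8.18%), both of *Epas1* and opposite in direction. For the change from P12 to P17 it was 1 with an offset of 0 (1.01%) and with the component (0.821%). It was 2 in the deposited (1.39%) and scanner (1.43%) ratios, and 3 in the retina channel alone (1.75%) and in the deposited ratio with the block (2.34%). For the change from P17 to P28 it was 1 with an offset of 0 (0.431%) and in the retina channel (1.02%), a probe of *Egln3* in each. For age from P12 to P17, 1 probe was called (1.28%). The count was 2 without background subtraction (1.85%), in the scanner ratio (2.65%), in the retina channel (3.12%) and with slides as a block (3.17%). It was also 2 with array weights (2.94%), with the set as a block (2.99%) and with the component (3.07%). By Bonferroni (0.309%) and without the smaller set (2.11%) it was 0. From P17 to P28, 6 were called (13.4%), against 12 with array weights (35.8%), 1 by Bonferroni (1.1%), 1 without the smaller set (1.29%) and 3 in the deposited ratio with the block (11.2%). From P12 to P28, 7 were called (23%), against 11 with array weights (38.7%), 1 by Bonferroni (3.48%), 1 without the smaller set (9.29%) and 3 with the component (16.4%).

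Some values turned sign. *Epas1* on P28 was -0.75 without the smaller set. The change of the *Egln3* effect from P17 to P28 was 0.36 without it, as was *Egln1* at -0.041 between these ages. From P17 to P28 in control mice, *Hif1a* was -0.14 with the component and -0.00068 in the deposited ratio with the block, *Epas1* was -0.011 with the component and *Vhl* was 0.098 with array weights. *Egln3* was 0.40 with an offset of 0, 0.52 in the deposited and in the scanner ratio, 0.24 in the retina channel, 0.53 in the deposited ratio with the block and 0.063 with the component. From P12 to P28 *Hif1a* was -0.12 with the component, and *Egln3* was 0.37 in the deposited and in the scanner ratio, 0.15 in the retina channel, 0.064 without the smaller set, 0.38 in the deposited ratio with the block and 0.18 with the component. The cause was not tested.

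No paired analysis was possible because each mouse carried its own number and the groups shared fewer than 2 numbers. No replicate was left out singly, since every group held more than 5 mice. *Egln3*, *Egln1* were measured near background, where the offset and deposited ratios differ in scale.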

Other observations

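Other genes of the pathway differed with age in control mice. From P12 to P28, 8 of 26 other 2-oxoglutarate oxygenases rose and 8 fell, against 23% of all probes called (limma, Benjamini-Hochberg). *Ogfod1*, a ribosomal prolyl hydroxylase, fell by 1.08 (SE 0.377, adjusted p = 0.0293). *Asph*, an aspartyl hydroxylase of the endoplasmic reticulum, rose by 0.76 (SE 0.0864, adjusted p = 9.96e-11), while the DNA demethylation enzyme *Tet2* fell by 0.64 (SE 0.149, adjusted p = 0.000664) and the histone demethylase *Kdm6b* by 0.54 (SE 0.0968, adjusted p = 1.25e-05). Of 10 VHL ligase partners, 3 rose and 2 fell; *Elob*, which holds VHL in the ligase, fell by 0.85 (SE 0.106, adjusted p = 2.16e-09) and the ubiquitin-conjugating enzyme *Ube2d3* rose by 0.71 (SE 0.155, adjusted p = 0.000279), as did *Nedd8*, the modifier that activates cullin ligases, by 0.35 (adjusted p = 0.0165) and the deubiquitinase *Usp20* by 0.35 (adjusted p = 0.0313). Of 10 bHLH-PAS relatives, 2 rose and 0 fell, with *Ahrr*, a repressor of the aryl hydrocarbon receptor, at 1.24 (SE 0.111, adjusted p = 1.6e-14) and *Npas4* at 0.39 (SE 0.0968, adjusted p = 0.00149). Of 25 HIF cofactors and regulators, 3 rose and 7 fell. The immunophilin gene *Fkbp8* fell by 0.63 (SE 0.208, adjusted p = 0.0189) and the glycolytic *Pkm* rose by 0.57 (SE 0.187, adjusted p = 0.0193), while the chaperone *Hsp90ab1* fell by 0.54 (SE 0.103, adjusted p = 3.67e-05) and the chaperone *Hsp90aa1* by 0.44 (SE 0.109, adjusted p = 0.00161). Of 48 HIF targets, 14 rose and 13 fell, with the glycolytic genes *Hk2* at 2.31 (SE 0.193, adjusted p = 6.84e-16), *Pgk1* at 1.51 (SE 0.209, adjusted p = 3.99e-08) and *Tpi1* at 1.41 (SE 0.238, adjusted p = 3.85e-06) and the mitophagy gene *Bnip3* at 1.20 (SE 0.112, adjusted p = 8.56e-14). Most P28 arrays belong to the smaller set. With the set of arrays as a block, against 16.9% of all probes called, 4 rose and 6 fell among the oxygenases, 2 and 1 among the VHL partners, 1 and 2 among the bHLH-PAS relatives, 3 and 9 among the cofactors, and 14 and 5 among the targets. In that fit *Asph* was at 0.58 (adjusted p = 1.48e-10), *Tet2* at -0.30 (adjusted p = 0.0324), *Kdm6b* at -0.72 (adjusted p = 1.43e-10), *Elob* at -0.59 (adjusted p = 5.39e-11), *Ube2d3* at 0.38 (adjusted p = 0.0135) and *Nedd8* at 0.34 (adjusted p = 0.0418). *Ahrr* was at 1.03 (adjusted p = 2.69e-14), *Hsp90ab1* at -0.32 (adjusted p = 0.00129), *Hsp90aa1* at -0.32 (adjusted p = 0.0306), *Pkm* at 1.05 (adjusted p = 2.27e-12), *Hk2* at 1.86 (adjusted p = 6.28e-19), *Pgk1* at 1.64 (adjusted p = 1e-08), *Tpi1* at 1.60 (adjusted p = 3.93e-07) and *Bnip3* at 1.05 (adjusted p = 2.19e-12). The values of *Npas4* at 0.21 (adjusted p = 0.0633), *Usp20* at 0.031 (adjusted p = 0.865), *Fkbp8* at -0.038 (adjusted p = 0.838) and *Ogfod1* at -0.15 (adjusted p = 0.785) did not pass in that fit.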
